A study of Mus musculus with 11 samples.

Results

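The enzymes that hydroxylate and crosslink collagen were examined in the aorta of old mice with and without dietary nitrate. They comprised 10 genes: the lysyl oxidases Lox, Loxl1, Loxl2, Loxl3 and Loxl4, the lysyl hydroxylases Plod1, Plod2 and Plod3, and the prolyl 4-hydroxylase subunits P4ha1 and P4ha2. All probes that the array files name for these genes were taken, which gave 18 of the 55681 probes on the array and 10 of 36413 gene names. A probe counted as detected when, in the nitrate or in the control group, 5 or more arrays had its spot located and clearly brighter than background. Of the 18 probes, 16 were detected, and each of the 10 genes had at least 1 detected probe, whereas 18294 of all gene names had one.

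Male C57BL/6 mice, 20 months old, were compared. Old nitrate treated mice (n = 5 arrays) received 1 g/L NaNO3 in their drinking water for 8 weeks, and old control mice (n = 6 arrays) carry the agent "control" in the labels. The paper gives sodium chloride at an equal concentration as the control drink, which the labels do not name, and the labels describe the control arrays as a new analysis of earlier samples. RNA came from the whole descending aorta of individual mice after the vessel had been flushed and cleared of surrounding fat, so signals from all cell types of the wall are mixed. In such tissue, fewer cells of a type and less RNA per cell cannot be told apart. A sixth nitrate array was not analysed here.

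Collagen chains are modified in the endoplasmic reticulum before they are secreted. Prolyl 4-hydroxylase adds the hydroxyl groups that keep the triple helix stable, and lysyl hydroxylases act on lysines that later carry sugars or crosslinks. Both are iron enzymes that need oxygen and ascorbate. Outside the cell, lysyl oxidases, which contain copper, convert lysine side chains of collagen and elastin to aldehydes, from which the crosslinks of fibers form. In the aorta these crosslinks give the wall its tensile strength and its elastic recoil.

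The probes decide what each value refers to. Lysyl oxidases are related proteins, and the sequences below show how far their probes differ. Positions are those of the probes in the mouse build mm9, named in the array files, and capitals mark the longest run of bases that a probe shares with a probe of another of the 10 genes. Where several genes share a run of the same length, only 1 is marked. In the order shown, the Loxl2 probes also share 8 bases with Plod2 and with Plod3, and the last Plod1 probe shares 8 with Loxl4. All 6 sequences have at least 1 reading frame without a stop codon. Exon and untranslated region annotation of mm9 was not used here.
Loxl1, chr9:58138570-58138629, minus strand, shared with Lox: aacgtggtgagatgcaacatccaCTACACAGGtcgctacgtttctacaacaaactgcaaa
Loxl1, chr9:58145451-58145510, minus strand, shared with Loxl2: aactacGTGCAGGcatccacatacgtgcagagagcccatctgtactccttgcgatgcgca
Loxl2, chr14:70090017-70090076, plus strand, shared with Plod1: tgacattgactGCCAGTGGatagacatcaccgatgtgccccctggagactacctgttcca
Loxl2, chr14:70092141-70092200, plus strand, shared with Lox: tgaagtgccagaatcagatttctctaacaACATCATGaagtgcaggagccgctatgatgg
Plod1, chr4:147302568-147302627, minus strand, shared with Plod2: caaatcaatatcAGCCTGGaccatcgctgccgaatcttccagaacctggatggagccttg
Plod1, chr4:147290037-147291457, minus strand, shared with Loxl2: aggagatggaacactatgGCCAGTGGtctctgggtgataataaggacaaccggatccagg
The longest shared run among all probes of different members was 9 bases, between Loxl1 and Lox. Aligned without gaps, these 60-base probes matched at 31 of 51 overlapping bases (60.8%), which was the highest identity that the Loxl1 probe had with a probe of another member. The 60 bases of the last Plod1 probe lie within a longer genomic stretch, so that probe crosses at least 1 exon junction.

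Signals are given as log2 of the processed signal after quantile normalization of the 11 arrays, and a difference of 1 on this scale is a doubling. Between pairs of arrays, the Pearson correlation across all probes other than controls, detected or not, was between 0.975 and 0.989. The array of control 1 stood apart in a principal component analysis, at 49.6 on the leading component (24.5% of the variance) against -23.2 to 16.2 for the other arrays. Each of the 3 slides held arrays of both groups. All control arrays lay in the same column of their slide and no nitrate array did, so slide column and treatment cannot be told apart. The level of a probe cannot be set against that of another probe, and comparisons are therefore made between mice within a probe.

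As a group, the 10 enzyme genes differed little between old nitrate treated and old control mice. Each gene is represented by its brightest detected probe. A gene was called differentially expressed when limma gave an unadjusted P value under 0.05 and the fold change exceeded 1.2. The thresholds are those of the study. By this rule 1 of the 10 genes (10%), Loxl4, was called, and it was higher with nitrate. Of all gene names, 8.89% were called in either direction and 4.27% were called higher, so the share among the enzymes was near that of the background. An unadjusted limma P value under 0.05 without the fold limit was reached by Loxl3 and Loxl4, 2 of 10 genes, against 14.5% of all gene names. After Benjamini-Hochberg adjustment over all detected transcripts none of the 10 passed, with a smallest adjusted limma P value of 0.215, and 1 of 18294 gene names did (0.00547%). Signals were higher on average in nitrate treated mice for 7 genes and lower for 3, beside 54.6% of gene names that were higher. The median difference was 0.05 for the 10 genes and 0.02 for all gene names. Signals of the groups overlapped for all 18 probes, whereas 2.94% of gene names had no overlap.

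**Figure D1:**
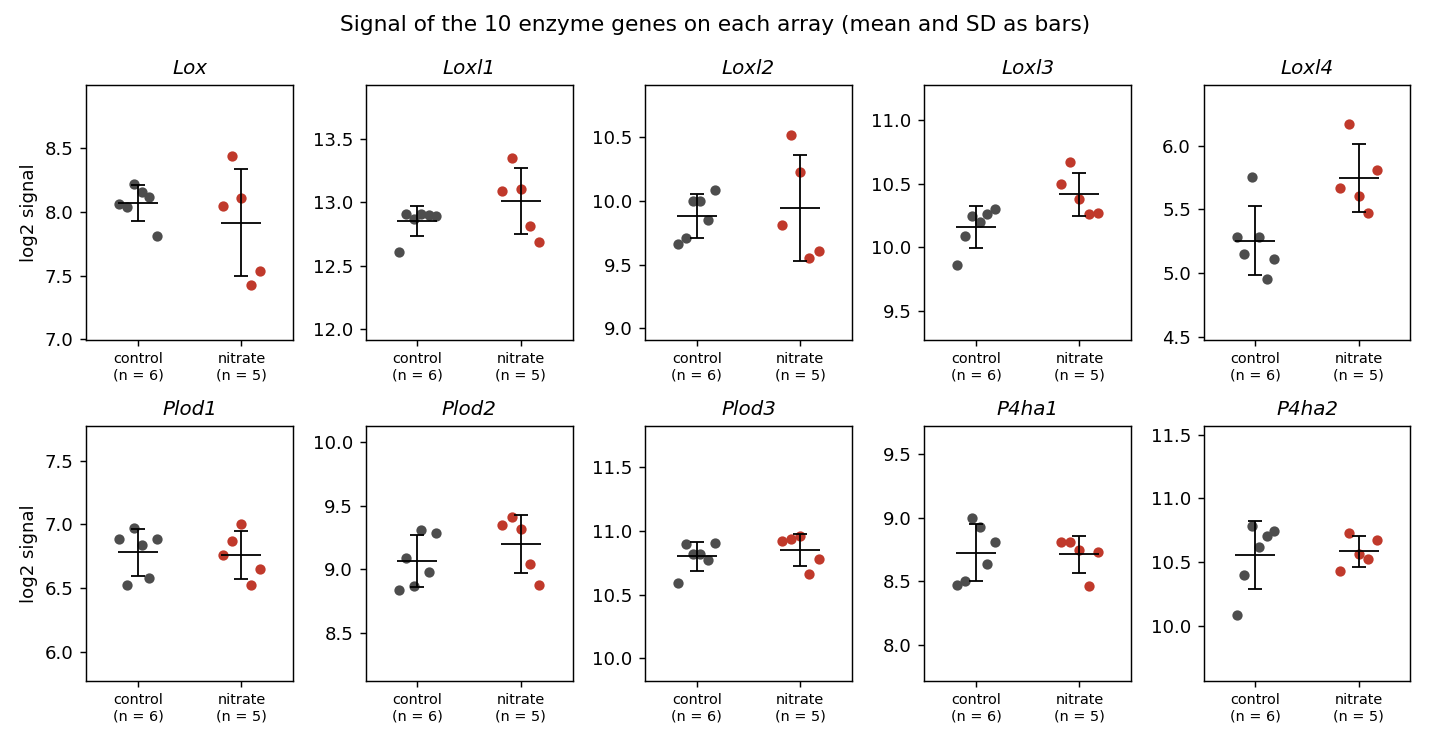
Log2 signal (vertical axis, a window of 2 units in each panel) of the brightest detected probe of each of the 10 genes in control (grey, n = 6) and nitrate treated mice (red, n = 5), 1 point per array, with mean and SD as bars. The groups overlap in every panel, and Lox and Loxl2 spread more widely among the nitrate treated mice, with SDs of 0.42 against 0.14 and 0.42 against 0.17.

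Loxl4, a lysyl oxidase with scavenger receptor domains, was the enzyme with the largest difference. Its brighter probe (chr19:42667320-42667379, minus strand) had log2 signals of 5.67, 6.17, 5.60, 5.47 and 5.81 in nitrate treated mice 1 to 5. The control mice had a lowest value of 4.95, a median of 5.21 and a highest value of 5.75. All nitrate treated mice lay above the control median and control 3, at 5.75, reached into their range. The difference was 0.49 ± 0.15 (SE), a 1.40-fold higher signal with a 95% interval of 1.12 to 1.76, with a limma P value of 0.00678, an adjusted P value of 0.215 and an exact permutation P value of 0.0152. Within slides 1, 2 and 3 the difference was 0.70, 0.40 and 0.29, so the direction was the same on each slide.

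The other Loxl4 probe (chr19:42668733-42668792, minus strand) did not show this difference. Its log2 signals were 4.82, 5.49, 4.80, 4.54 and 4.84 in the nitrate treated mice, and 4.48, 4.85 and 5.09 were the lowest, median and highest of the controls. Only nitrate treated mouse 2 lay above the control range. The difference was 0.05 with a 95% interval of -0.30 to 0.40 (limma P value of 0.74, exact permutation P value of 0.781). Within slides 1, 2 and 3 it was 0.38, -0.05 and -0.215, so its direction changed between slides. The probes correlated over the 11 arrays at r = 0.348, and both had low processed signals, between 29.5 and 71.5 for the called probe and between 23.5 and 44.5 for the other. When the detected probes of Loxl4 were averaged, the difference was 0.27 with a limma P value of 0.0613, and with normexp background correction it was 0.22, which is under the fold limit.

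Loxl3, a relative of Loxl4 with the same domain type, came close to the limits. Its probe (chr6:83001888-83001947, plus strand) gave 10.50, 10.67, 10.38, 10.26 and 10.27 in nitrate treated mice 1 to 5, against 9.86, 10.22 and 10.30 as the lowest, median and highest control values. The first 3 nitrate treated mice were above every control mouse, and mice 4 and 5 were within the control range. The difference was 0.26 ± 0.10 (SE) with a limma P value of 0.0236, an adjusted P value of 0.291 and an exact permutation P value of 0.0195, and its fold change fell just short of the limit of 1.2. It passed the limit with 75th percentile scaling (0.265) and with slide as a block (0.268, limma P value of 0.0307). Most of the difference lay on slide 1, at 0.61, against 0.13 on slide 2 and 0.02 on slide 3. Loxl3 was also called when nitrate treated mouse 3, 4 or 5, or control 3, 4, 5 or 6, was left out, and the limma P value was under 0.05 in 9 of 11 such fits, the exceptions being those without nitrate treated mouse 1 (0.0531) and mouse 2 (0.0688).

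Lox, the founding member of the family and the main crosslinking enzyme of the arterial wall, did not pass the test. Signals of its detected probe (chr18:52680465-52680524, minus strand) were 8.05, 8.44, 8.11, 7.43 and 7.54 in nitrate treated mice 1 to 5. In control mice the lowest was 7.81, the median 8.09 and the highest 8.22. Nitrate treated mice 4 and 5 were below all controls, and mouse 2 was above all controls. The difference of means was -0.16 with a 95% interval of -0.52 to 0.20, a limma P value of 0.363 and an exact permutation P value of 0.394. With 1 array left out it ran from -0.04 (without nitrate treated mouse 4) to -0.29 (without mouse 2, limma P value of 0.0711). A further Lox probe, which missed the detection rule although it was well above background on all 11 arrays, differed by -0.14 and followed the first with r = 0.927. Mice 4 and 5 were the lowest of all 11 mice at both probes.

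Loxl2, which crosslinks basement membrane and fibrillar collagens, had the same uneven nitrate group. Its brightest probe (chr14:70095254-70095313, plus strand) gave 9.81, 10.52, 10.23, 9.55 and 9.61 in nitrate treated mice, and 9.66, 9.93 and 10.09 as the lowest, median and highest in controls. At the probe chr14:70090017-70090076 shown above, the nitrate treated mice had 8.96, 9.24, 9.00, 8.20 and 8.07 and the controls ranged from 8.37 to 8.75. At the probe chr14:70092141-70092200, the values were 7.89, 8.35, 8.05, 7.09 and 6.86 against a control range of 7.41 to 7.84. At both of the last probes mice 1, 2 and 3 were above every control and mice 4 and 5 were below every control. These 3 probes share no run longer than 6 bases, and the others correlated with the brightest at r = 0.773 and r = 0.845. Their group differences were small, at 0.06, 0.08 and 0.05, with limma P values of 0.736, 0.683 and 0.836. The means therefore hid a spread in the nitrate group, with an SD of 0.64 against 0.17 in controls at the last probe.

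A further probe carries the name Loxl2 but lies on chromosome 2 (chr2:71475085-71475144, plus strand), away from the others on chromosome 14, and the array files describe its target as a predicted locus similar to Loxl2. It was well above background on 4 of the nitrate arrays and on all 6 control arrays. Its difference was -0.21 (limma P value of 0.278, exact permutation P value of 0.374), and it followed the brightest Loxl2 probe only weakly, with r = 0.359.

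Loxl1, an enzyme of elastic fiber upkeep, was higher in the first 3 nitrate treated mice. With the probe chr9:58138570-58138629 these mice had 13.09, 13.35 and 13.10, mice 4 and 5 had 12.81 and 12.69, and the controls had 12.61, 12.89 and 12.91 as lowest, median and highest. Mice 1 to 3 exceeded every control, and mice 4 and 5 were lower than the control median. The difference was 0.16 with a 95% interval of -0.08 to 0.41, a limma P value of 0.174 and an exact permutation P value of 0.21. With 1 array left out it ran from 0.08 (without nitrate treated mouse 2) to 0.24 (without mouse 5, limma P value of 0.041, under the fold limit). The other Loxl1 probe gave 0.19 (limma P value of 0.163) and followed the first with r = 0.928.

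**Figure D2:**
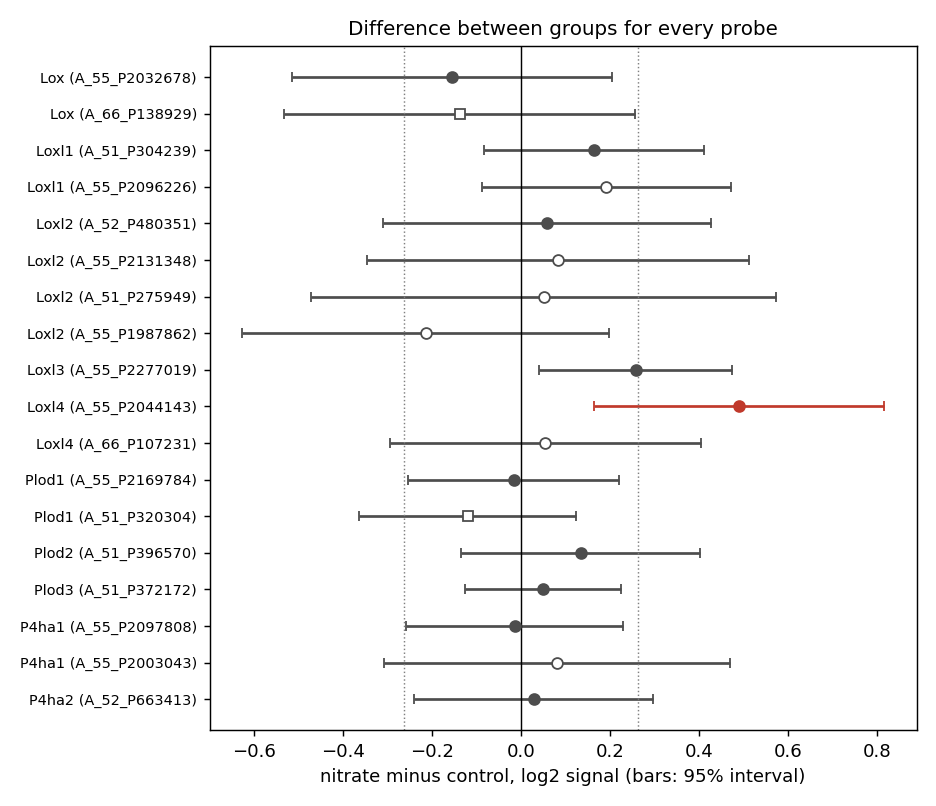
Difference between nitrate treated and control mice in log2 signal (horizontal axis, bars for the 95% interval) for each of the 18 probes. Filled points are the representative probes, open points other probes, squares the 2 probes outside the detection rule, red the called probe, and dotted lines the fold change of 1.2. The called Loxl4 probe lies at 0.49 and the other Loxl4 probe at 0.05.

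Among the nitrate treated mice, these lows and highs were split by slide. For Lox the difference was 0.20 on slide 1, 0.12 on slide 2 and -0.69 on slide 3, which held nitrate treated mice 4 and 5 with controls 3 and 5. For Loxl2 it was 0.48, 0.18 and -0.34, and for Loxl1 0.47, 0.21 and -0.13. The mean of the slide 3 controls for Lox was 8.17, against 8.05 and 7.98 on slides 1 and 2. At the brightest probes it was 9.93 against 9.69 and 10.05 for Loxl2, and 12.88 against 12.76 and 12.90 for Loxl1. At the Loxl2 probes shown above it was 8.47 against 8.68 and 8.69, and 7.50 against 7.55 and 7.74. At the Loxl2 probe on chromosome 2 it was 5.06 against 5.36 and 4.99, and at the other Loxl1 probe 11.19 against 11.21 and 11.27. The further Lox probe had 8.86 and 8.43 in the slide 3 controls and 8.14 to 8.42 in the other controls. The slide 3 controls were thus lowest at some of these probes and not at others. With slide as a block the differences were -0.15 for Lox (limma P value of 0.357), 0.10 for Loxl2 (0.566) and 0.18 for Loxl1 (0.146). Over the 10 genes, 3 (30%) had the same sign on all 3 slides, beside 39.1% of all gene names. They were Loxl3, Loxl4 (at its brighter probe only) and Plod2.

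Markers of other tissues differed among the same mice. The 8 detected of 10 genes of striated muscle, such as Myh6 and Tnni3 of the heart, had a mean level relative to the control mean of 2.73 in nitrate treated mouse 4 and 0.95 in mouse 5, and of -0.55 to 0.36 in mice 1 to 3. In controls this level was 2.41 in control 1 and -1.04 to 0.30 in the others. Of these 8 genes, 0 were called, with limma P values from 0.0999 to 0.937, beside 8.89% of all gene names called. The genes of the list did not all move together. Myh6 was 14.64 and 12.32 in mice 4 and 5 against 8.59 to 10.32 in mice 1 to 3. Acta1 went the other way, with 13.14 and 13.10 against 13.66 to 13.68, as did Tnnt3, with 4.75 and 4.57 against 4.93 to 5.38. The 5 genes of brown adipocytes stood at 0.35 and 0.52 in mice 4 and 5 and at -0.58 to -0.16 in mice 1 to 3. In controls they stood at 0.85 in control 1 and at -0.30 to 0.03 in the others. Of the 5, only Cidea was called, and it was lower, beside 4.62% of all gene names called lower. Ucp1, Elovl3 and Dio2 had the higher mean with nitrate, with differences of 0.23, 0.23 and 0.315, and Cox8b the lower, with -0.35. Smooth muscle genes, of which Acta2, Myh11 and Tagln are defining, were all detected, with a mean level of 0.02 and -0.02 in mice 4 and 5 and of 0.12 to 0.22 in mice 1 to 3, against -0.31 in control 1 and 0 to 0.12 in the other controls. Of the defining genes, Myh11 was 14.72 and 14.64 in mice 4 and 5 against 14.99 to 15.37 in mice 1 to 3. Acta2 was 17.97 and 18.06 against 17.87 to 18.02, and Tagln 17.90 and 17.93 against 17.90 to 17.97. For both, the ranges of mice 1 to 3 and of mice 4 and 5 overlapped. The part of these tissues in the enzyme signals was not tested.

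**Figure D3:**
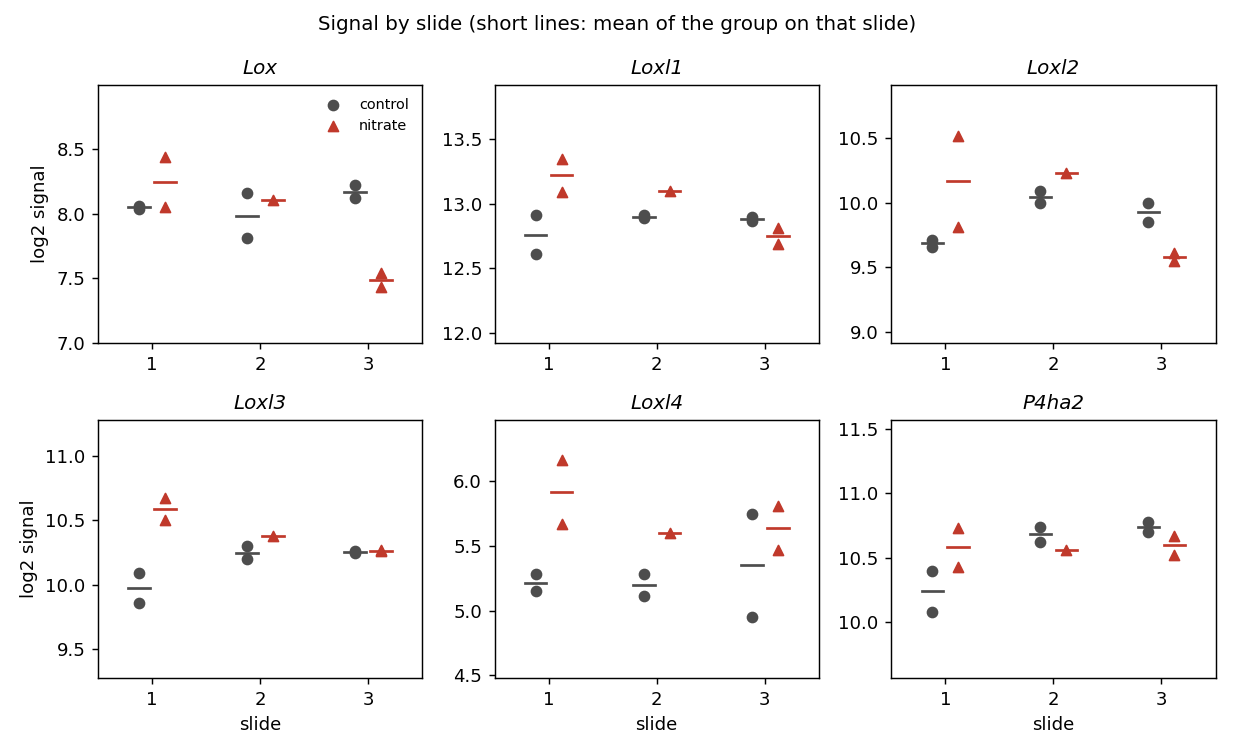
Log2 signal (vertical axis) of 6 of the enzyme genes by slide (horizontal axis) in control (grey circles) and nitrate treated mice (red triangles), 1 symbol per array and a short line for the mean of a group on that slide. On slide 3, the nitrate treated mice lie below the controls for Lox, by 0.69, and for Loxl2, by 0.34, while on slide 1 they lie above them.

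The lysyl hydroxylases did not differ between the groups by the rule. Plod1, which hydroxylates lysines of the helix, had signals of 6.76, 6.87, 7.0, 6.52 and 6.65 in nitrate treated mice with the probe chr4:147302568-147302627, and of 6.52, 6.86 and 6.97 as lowest, median and highest in controls. The groups covered nearly the same range. The difference was -0.02 with a 95% interval of -0.25 to 0.22 (limma P value of 0.877, exact permutation P value of 0.872). The probe across the exon junction, outside the detection rule but well above background on all arrays, differed by -0.12 (limma P value of 0.3) and did not follow the first, with r = -0.106.

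Plod2, the hydroxylase of the ends of the collagen chain, where crosslinks start, was measured by 1 probe (chr9:92502483-92502542, plus strand). Nitrate treated mice had 9.35, 9.41, 9.32, 9.04 and 8.88, and controls 8.84, 9.04 and 9.31 as lowest, median and highest. Mice 1 to 3 were above every control and mice 4 and 5 among them. The difference was 0.13 with a 95% interval of -0.14 to 0.40 (limma P value of 0.298, exact permutation P value of 0.305), and with slide as a block it was 0.17 (limma P value of 0.0793).

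Plod3, which also attaches sugars to hydroxylysine, was measured by the probe chr5:137472079-137472138 on the plus strand. Its signals were 10.92, 10.94, 10.96, 10.66 and 10.78 in nitrate treated mice and 10.59, 10.82 and 10.91 as lowest, median and highest in controls. Mice 1 to 3 were again above every control, by a small margin. The difference was 0.05 with a 95% interval of -0.13 to 0.22, the narrowest of the 18 probes (limma P value of 0.546, exact permutation P value of 0.498). As folds, this interval runs from 0.917 to 1.17, so a change of more than 1.2-fold in either direction lay outside it.

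The prolyl 4-hydroxylase subunits, which carry the catalytic site, had the smallest differences beside Plod1. P4ha1 (chr10:58835625-58835684, plus strand) had signals of 8.81, 8.81, 8.75, 8.46 and 8.73 in nitrate treated mice, against 8.47, 8.72 and 9.00 as lowest, median and highest in controls. Mouse 4 was below all controls and the other nitrate treated mice lay close together. The difference was -0.01 with a 95% interval of -0.26 to 0.23 (limma P value of 0.902, exact permutation P value of 0.909). A further P4ha1 probe, nearer to the start of the gene on the plus strand (chr10:58835012-58835071), gave 0.08 (limma P value of 0.66).

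P4ha2 (chr11:53945032-53945091, plus strand) gave 10.43, 10.73, 10.56, 10.52 and 10.67 in nitrate treated mice, and 10.08, 10.66 and 10.78 as lowest, median and highest in controls. All nitrate values lay inside the control range. The difference was 0.03 with a 95% interval of -0.24 to 0.30 (limma P value of 0.822, exact permutation P value of 0.868). Control 1 had the lowest value for P4ha2, Plod2, Plod3, Loxl1 and Loxl3, and it is the array that stood apart and had the high striated muscle level.

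Within the family, signals varied together to different degrees over the 11 arrays. Loxl1 followed Loxl3 (r = 0.857), Plod2 (r = 0.812) and Loxl2 (r = 0.809), and P4ha1 followed P4ha2 with r = 0.665. Lox and Loxl3 were less alike (r = 0.236). Among all detected genes, those most like Lox in pattern were Ttll12 (Pearson r = 0.909, Spearman rho = 0.764), Sdf4 (r = 0.868, rho = 0.791) and Eln (r = 0.862, rho = 0.6). Eln encodes elastin, a substrate of lysyl oxidases, and its values were 13.11, 13.28, 13.06, 11.91 and 12.28 in nitrate treated mice 1 to 5, against 12.55 to 13.20 in controls. Nitrate treated mice 4 and 5 were thus below all controls for Eln as for Lox, and the groups differed by -0.15 (limma P value of 0.53). Most like Plod1 were Gm9112 (r = 0.841), Gm15754 (r = 0.841) and F5 (r = 0.838), and most like P4ha1 were Cnksr1 (r = 0.852), Hsp90aa1 (r = 0.852) and Sap130 (r = 0.848). These correlations describe 11 arrays that share slides and normalization and were picked as the highest of all genes.

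Genes that act beside the enzymes in folding, processing and secreting collagen were examined next. Of 27 such genes, 26 were named on the array and 23 detected, and nitrate treated mice had the higher mean for 20 of the 23 and the lower mean for 3, beside 54.6% of all gene names with the higher mean. The median difference was 0.12 beside 0.02 for all gene names. The mean level of the list relative to the control mean was 0.10, 0.25 and 0.19 in nitrate treated mice 1 to 3 and 0.04 and 0.01 in mice 4 and 5, against -0.19 in control 1 and -0.02 to 0.12 in the other controls. Mice 2 and 3 lay above all controls, and mice 1, 4 and 5 lay within the control range. By the rule 3 (13%) were called and all 3 rose: Fkbp10, Bmp1 and Tll1. Again 8.89% of all gene names were called, and 4.27% were called higher. An unadjusted limma P value under 0.05 was reached by 6 genes, all higher, and 8.04% of all gene names did so on that side. None passed the adjusted limma P value of 0.05.

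Fkbp10, a prolyl isomerase and chaperone of procollagen, had 12.84, 12.95, 12.69, 12.85 and 12.87 in nitrate treated mice against 12.25, 12.52 and 12.76 as lowest, median and highest in controls. Only control 5 reached into the nitrate range. The difference was 0.34 ± 0.09 (SE), or 1.26-fold, with a limma P value of 0.00233, an adjusted P value of 0.162 and an exact permutation P value of 0.00649. Bmp1, the proteinase that removes the C-terminal propeptide of procollagen and also activates the precursor of lysyl oxidase, rose by 0.33 (1.25-fold, limma P value of 0.0196, exact permutation P value of 0.0216). Tll1, a related proteinase with a low signal, rose by 0.33 (limma P value of 0.0293, exact permutation P value of 0.0519) and was not called with normexp background correction, at 0.10. Without nitrate treated mouse 2 only Fkbp10 was still called, and without nitrate treated mouse 1 there were 5 calls. Bmp1 also lost its call without control 1, and Tll1 without nitrate treated mouse 3 or without control 2, 4 or 5.

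The 3 other genes with an unadjusted limma P value under 0.05 lay under the fold limit. Ppib, or cyclophilin B, was 0.17 higher with no overlap between the groups (limma P value of 0.0299, exact permutation P value of 0.00216, the smallest possible). Of all gene names, 2.94% had no overlap in either direction. Sec23a, of the coat of vesicles that carry procollagen, was 0.25 higher (limma P value of 0.0084), and Adamts2, which removes the N-terminal propeptide, was 0.22 higher (limma P value of 0.0333). P4hb, the partner subunit of the prolyl 4-hydroxylases, differed by 0.12 (limma P value of 0.174), P4ha3 by -0.12 (limma P value of 0.392) and the collagen chaperone Serpinh1 by -0.03 (limma P value of 0.676).

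Among the substrates, 16 of 20 genes of collagens and elastic fibers were detected and 19 named on the array. By the rule 3 of 16 (18.8%) were called, with Mfap4 and Fbln5 higher and Col5a3 lower. Of all gene names 8.89% were called, 4.27% higher and 4.62% lower. The median difference was 0.13. The mean level of the list was 0.12, 0.28 and 0.15 in nitrate treated mice 1 to 3 and -0.09 and -0.07 in mice 4 and 5, against -0.28 in control 1 and 0.01 to 0.08 in the other controls. The main fibrillar collagens did not pass, with differences of 0.11 for Col1a1, 0.14 for Col1a2 and 0.16 for Col3a1 (limma P values of 0.306, 0.2 and 0.138). Without nitrate treated mouse 2, and likewise without control 1, Col5a3 alone was called. Mfap4 also lost its call without nitrate treated mouse 4 and without control 2 or 6.

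Col5a3, a chain of the minor fibrillar collagen V, had 7.74, 8.10, 8.30, 7.90 and 8.08 in nitrate treated mice and 8.45, 8.55 and 9.11 as lowest, median and highest in controls. Every nitrate treated mouse was below every control, beside 2.94% of all gene names with no overlap in either direction. The difference was -0.61 ± 0.13 (SE), with a limma P value of 0.000587, an adjusted P value of 0.12 and an exact permutation P value of 0.00216. Mfap4, a microfibril protein, rose by 0.40 (1.32-fold, limma P value of 0.0295, exact permutation P value of 0.0541), and Fbln5, an adaptor of elastin and lysyl oxidases, rose by 0.30 (1.23-fold, limma P value of 0.0153, exact permutation P value of 0.0216).

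Adipocyte markers were lower in the same comparison. Of 12 such genes 7 (58.3%) were called, all lower, beside 4.62% of all gene names, with a median difference of -0.38. Plin4 alone had the higher mean in nitrate treated mice, by 0.09 (limma P value of 0.39). Their mean level relative to the control mean was -0.68 to -0.21 in nitrate treated mice and -0.32 to 0.36 in controls, of which controls 1 and 3 stood at 0.36 and 0.34 and the other 4 at -0.32 to -0.07. Adipoq fell by 0.49 (limma P value of 0.000752). Markers of fibroblasts, the cells that produce much of the collagen, were higher for 8 of 8 genes, beside 54.6% of all gene names. None was called, and 2, Lum and Pi16, had a limma P value under 0.05, which 8.04% of all gene names reached on that side. Fibroblast levels were -0.03 to 0.25 in nitrate treated mice against -0.12 to 0.06 in controls. The part of these cells in the values of Col5a3 and of the enzymes was not tested. Of 8 smooth muscle genes 7 had the higher mean with nitrate, beside 54.6% of all gene names. Of the 8, 1 was called (Lmod1, higher), where 8.89% of all gene names were called and 4.27% were called higher. Smtn reached a limma P value of 0.0474 under the fold limit. For Smtn every nitrate treated mouse was above every control (exact permutation P value of 0.00433), beside 2.94% of all gene names with no overlap in either direction. Of 8 endothelial and 6 detected leukocyte genes 0 were called by limma, with an unadjusted limma P value under 0.05 for Vwf alone.

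**Figure D4:**
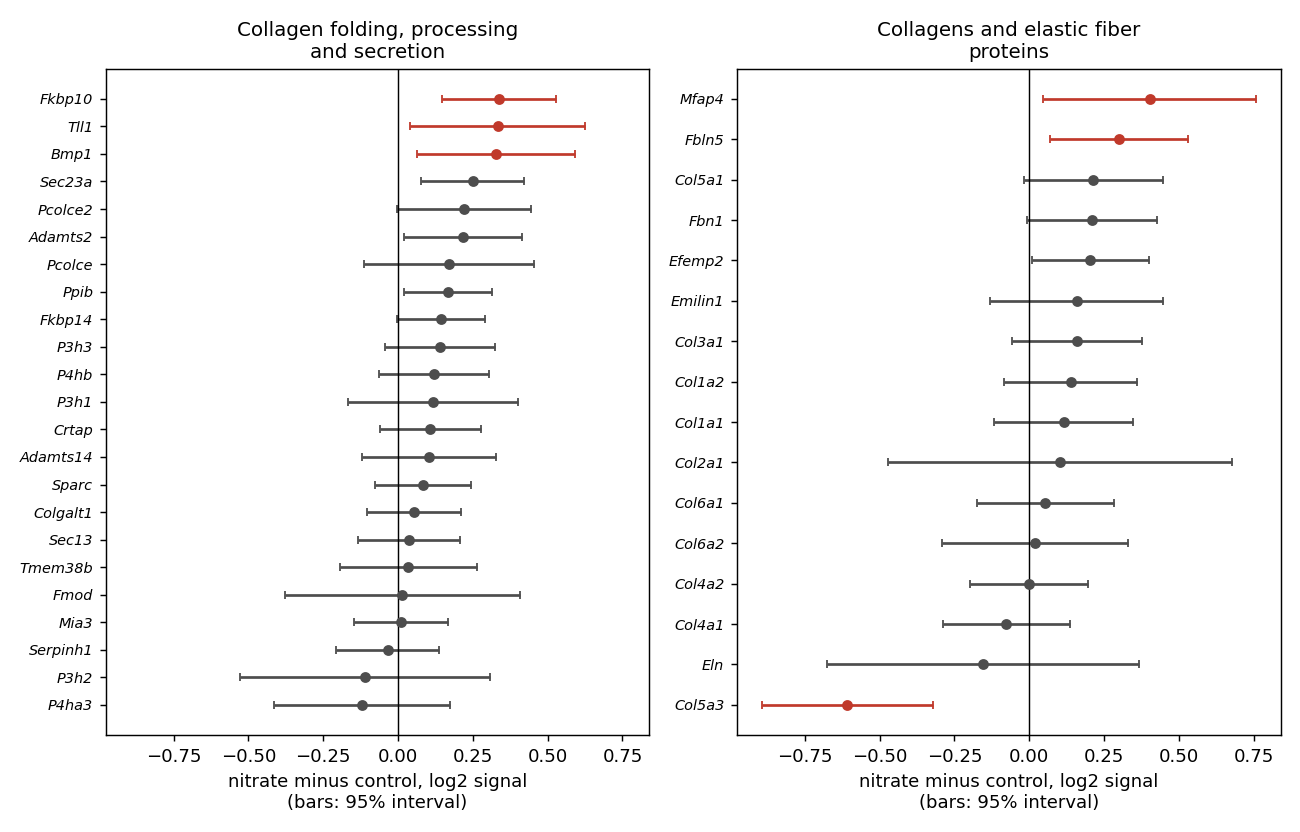
Difference between nitrate treated and control mice in log2 signal (horizontal axis, bars for the 95% interval) for the 23 detected genes of collagen folding, processing and secretion (left) and the 16 detected collagen and elastic fiber genes (right). Called genes are red: Fkbp10, Tll1 and Bmp1 on the left, and Mfap4, Fbln5 and Col5a3 on the right, of which Col5a3 lies at -0.61.

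Oxygen, iron and copper supply the cofactors of both enzyme classes. Of 18 genes of these systems 17 were detected and 2 were called (11.8%), near the 8.89% of all gene names, with a median difference of -0.08. Ankrd37, a target of hypoxia-inducible factors, rose by 0.66 ± 0.25 (SE), or 1.58-fold (limma P value of 0.0207, adjusted P value of 0.285, exact permutation P value of 0.0476). Other known targets of these factors were not called and had differences below 0: -0.50 for Pdk1 (limma P value of 0.0582), -0.20 for Ldha, -0.19 for Bnip3, -0.19 for Vegfa and -0.10 for Egln3, whereas Slc2a1 differed by 0.21 (limma P value of 0.0905). Without control 1, Pdk1 was -0.30, Ldha -0.07, Vegfa -0.18, Bnip3 -0.16, Egln3 0.03 and Slc2a1 0.12. Ankrd37 lost its call without nitrate treated mouse 4 (0.51, limma P value of 0.0597). Tfrc, the transferrin receptor of iron uptake, fell by 0.43 (limma P value of 0.0414, exact permutation P value of 0.0671) and lost its call without nitrate treated mouse 2 or 3 or without control 1, 2 or 4. Bnip3 was called lower without nitrate treated mouse 4 or 5, Slc2a1 higher without mouse 5 and Pdk1 lower without control 6, so the list had 1 to 4 calls with an array left out. The copper carriers Atp7a, which loads lysyl oxidases, and Slc31a1 differed by -0.07 and -0.14 (limma P values of 0.385 and 0.232), and Hif1a by 0.18 (limma P value of 0.0361), under the fold limit.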

How the data were processed

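Cy3-labeled aortic RNA of 11 mice was hybridized to one-color mouse arrays. The authors deposited spot intensities and flags from Feature Extraction 10.7.1.1, after background subtraction and detrending and not normalized between arrays, and a table of log2 values. These log2 values, which the authors made by quantile normalization and centring on the median of all samples, were checked against the intensities of each array and served as an alternative.

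Processed signals, with a floor of 1, were log2 transformed. Spots flagged as outliers (at most 186 per array) and control spots were dropped, spots of a probe averaged, and quantile normalization applied. The groups were compared with limma 3.58.1 (lmFit and eBayes, R 4.3.3) over all 23633 detected probes, without covariates, and p-values were adjusted over all of them. The 2 member probes that missed detection were fitted together with every probe of the array. Two-sided exact permutation tests used all 462 divisions of the mice, with a smallest possible P value of 0.00216. The number of arrays limits the precision. No member spot was saturated. The fit was tested on simulated data.

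Groups came from the labels. The members, gene lists and tests were chosen with earlier results of these data known. Named were all members with every probe, the called genes of 3 fixed lists (folding, processing and secretion, substrates, and oxygen, iron and copper), markers, and the 3 genes most correlated with Lox, Plod1 and P4ha1. Col1a1, Col1a2, Col3a1, P4hb, P4ha3, Serpinh1, Ppib, Sec23a, Adamts2, Hif1a, Pdk1, Ldha, Bnip3, Vegfa, Egln3, Slc2a1, Atp7a and Slc31a1 were named after their values were seen. Gene names are those of the files. A probe named by a transcript identifier and described as Plod1 lay outside the name rule and was not above background on any array. Alternatives covered normalization, background correction, offset, the deposited table, detection, flagged spots, prior variance, slide and replicate blocks, adjustment, choice of probe and each array left out.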

Additional observations from a re-analysis of the deposited data

Results flagged for a closer look

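Of 26 nitrate groups and 26 control groups of single probes, 3 held a mouse far from the others, and chance alone gives about 1 in 20 such groups. At the brighter Loxl1 probe, control 1 lay low at 12.61 with the other controls between 12.87 and 12.91, and its gap took 0.886 of the range of the group. At the brighter P4ha1 probe, nitrate treated mouse 4 lay low at 8.46, with a gap of 0.777 of the range. For Col5a3, control 3 lay high at 9.11, with a gap of 0.658 of the range. Control 1 is also the array that stood apart on the first principal component. Loxl1 differed by 0.116 without control 1 and P4ha1 by 0.049 without nitrate treated mouse 4, both not called, and Col5a3 was still called without control 3.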

How the results depend on the processing

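The number of enzyme genes called, 1 in the main analysis, was 2 with 75th percentile scaling, with slide as a block and with the replicate block, where Loxl3 joined Loxl4, and 0 with normexp background correction, with the mean of all detected probes of a gene and after adjustment. It was 1 to 2 when each array was left out, with Loxl4 called each time. The median difference of the 10 genes, 0.054 in the main analysis, ran from 0.042 to 0.085 under the other alternatives and from 0.009 to 0.127 with arrays left out. Within groups, the median level of the 10 genes per array had an SD of 0.171, which is larger than the difference itself. Loxl3 was 0.265, 0.268 and 0.287 with percentile scaling, slide block and replicate block, and Loxl4 was 0.219 with normexp and 0.272 as a mean of probes. Control 6 has no nitrate treated mouse of its number. The replicate block therefore gave each of the 10 genes the same difference as the fit without control 6, and is not a separate comparison of the means.

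Genes with differences near 0, none of them called, turned in sign. Loxl2 was -0.006 as a mean of its 4 probes, which takes in the probe on chromosome 2 at -0.215, while the 3 probes on chromosome 14 had 0.058, 0.082 and 0.051, and it was -0.086 to 0.156 with arrays left out. Plod1 was 0.01 with normexp, 0.008 with the slide block and 0.003 with the replicate block, and -0.077 to 0.044 with arrays left out. P4ha1 was 0.007 with the slide block, 0.003 with the replicate block and 0.033 as a mean of probes, and -0.065 to 0.049 with arrays left out. P4ha2 was -0.066 to 0.073 with arrays left out. For the other turns in sign the cause was not tested.

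Genes of collagen folding, processing and secretion called numbered 1 to 5 with arrays left out and 0 after adjustment, and substrates 1 to 3 and 0. Of all detected transcripts 2128 were called, 1218 with normexp, 3224 without a detection filter, which tests more probes, 3 after adjustment and 1596 to 2424 with arrays left out. The replicate numbers of the titles did not pair the mice: correlations of their deviations were 0.01, 0.117, -0.137, -0.132 and 0.18 for pairs 1 to 5, and 1 of the 5 nitrate treated mice correlated best with its own number. With the replicate block 2433 transcripts were called, beside 2424 in the fit without control 6, which has no partner in that block. Signals of both Loxl4 probes were low, and their differences had SEs of 0.15 and 0.16. Whether the low signal limits their precision was not tested.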
